A study of Mus musculus with 34 samples.

Results

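Newly made RNA of wild-type mouse liver was read by 2 methods, and the ratio of the methods was formed for each gene. One library came from RNA labelled in the living animal with ethynyl uridine (EU), and the other from isolated nuclei left to extend their RNA with bromouridine triphosphate (Br run-on). Genes were kept where the libraries together held at least 20 reads, which left 16434 of the 37583 gene identifiers in the count files (43.7%). These genes carried 99.7% of the EU reads and 98.7% of the Br reads. At the limit itself, the 152 genes with 20 reads had a median log2 ratio of EU over Br of -2.05, and the 183 genes with 19 reads just outside it had one of -2.22.

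The series holds 34 samples, of which 10 had count or value files. Wild-type animals were F1 mice (C57Bl6/CBA) at 45 days of age. For EU they were injected into the peritoneum with 25 mg of the nucleoside per kg body weight, 30 min before death, and biotin-coupled nuclear RNA was captured and then cut with RNase III. For Br, liver nuclei were supplied with Br-UTP for 3 min, and the RNA was treated with RppH and polynucleotide kinase before adaptors were joined, with no RNase III step described. The same methods were applied to Setd8lox/lox-Alb-Cre mice of the same strain and age, in which Cre from the albumin promoter removes a floxed exon of Setd8 (Kmt5a, a histone H4 lysine 20 methyltransferase) in hepatocytes. Other liver cells of those mice keep the gene. Each method has 1 library per genotype, and the labels do not say how many animals a library pools. The ratio within the wild type therefore has no replicate and no test. Intervals given below are exact (Clopper-Pearson) 95% intervals that cover counting error only, since PCR copies of 1 molecule were not marked.

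A run-on extends RNA polymerases that are already engaged on the DNA, in nuclei from which the supply of fresh initiation has been cut off. It therefore reads where polymerase sits, and RNA that is made and destroyed at once is still seen. A nucleoside given to the animal must first reach the liver and be phosphorylated, and the label then collects in whatever RNA is made and still present in the nucleus when the animal is killed. Label chemistry, labelling time and fragmentation differ between the methods, whether the animals do is not stated, and their parts in any difference cannot be told apart.

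The EU library held 10833287 reads in genes, and the Br library held 3156055 after its deposited counts, all even, were divided by 2. The libraries labelled knockout held 5583983 EU and 2317840 Br reads. Counts of the whole Setd8 gene cannot check the deletion of 1 exon: Kmt5a stood at 43.7 CPM (counts scaled to the total of the library) in EU and 33 in Br of the wild type, and at 55.5 and 39.7 in the libraries labelled knockout. Hepatocyte markers were abundant in both wild-type libraries. Of 16 lymphocyte markers, only Cd4 reached 20 reads. The knockout EU library stood apart from the wild-type one in small RNA and in erythroid markers, among others. Genes of snoRNA took 1.69% of its reads against 0.166%, and miRNA genes 0.465% against 0.142%. Erythroid markers took 0.312% against 0.0162%. Among the 14497 genes with at least 20 reads in both pairs of libraries, the median absolute log2 difference between genotypes was 0.72 in EU and 0.37 in Br (CPM plus 1). Medians of most gene lists are given for both pairs, with this in view.

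Small nuclear RNAs showed some of the largest differences between the methods, and sequences are shown here for a U1 and a U12 gene, which lie near the low end of the ratio. Their uridines are in capitals, as EU and Br-UTP are both uridine analogues. Uridine makes up 24.1% of the Rnu1b6 transcript (chr3:96460024-96460189 on the minus strand, GRCm38, GENCODE M21) and 25.2% of Rnu12 (chr15:83149644-83149794, plus strand).
Rnu1b6: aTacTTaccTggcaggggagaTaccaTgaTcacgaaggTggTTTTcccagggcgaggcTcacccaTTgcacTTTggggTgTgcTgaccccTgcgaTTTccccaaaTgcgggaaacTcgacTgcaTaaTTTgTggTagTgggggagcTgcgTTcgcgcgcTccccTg
Rnu12: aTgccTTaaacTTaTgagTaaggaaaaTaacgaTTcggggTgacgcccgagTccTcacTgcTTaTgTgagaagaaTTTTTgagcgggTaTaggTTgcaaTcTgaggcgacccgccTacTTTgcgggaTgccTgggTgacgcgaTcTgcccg

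A pair of box C/D snoRNAs, which guide methylation of other RNAs, is shown because both are 70 nt long with 16 uridines (22.9%) and yet lay on opposite sides of the ratio. They were chosen after their values were seen. Snord104 (chr11:106500993-106501062, plus strand) had a log2 ratio of -6.32 and Snord82 (chr1:86356261-86356330, minus strand) one of 1.33.
Snord104: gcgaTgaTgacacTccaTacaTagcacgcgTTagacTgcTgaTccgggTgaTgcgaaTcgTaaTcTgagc
Snord82: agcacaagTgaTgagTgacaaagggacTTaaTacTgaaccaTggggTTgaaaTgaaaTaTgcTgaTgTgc

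For the miRNA genes, mature sequences of 3 liver miRNAs (RefSeq, GRCm38.p6) are shown with the seed, bases 2 to 8, in capitals. Their genes were less than 2-fold apart in the wild-type pair and more than 8-fold higher in EU in the knockout pair. No seed is shared among them.
mmu-miR-192-5p: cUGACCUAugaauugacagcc
mmu-let-7b-5p: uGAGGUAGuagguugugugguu
mmu-miR-195a-5p: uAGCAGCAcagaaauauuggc

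Across the 16434 genes the median log2 ratio of EU over Br was -0.63, with quartiles at -2.23 and 0.68 and extremes of -12.24 and 7.27. Scaled to the total of each library, 3215 genes were at least 2-fold higher in EU (19.6% of genes) and 7058 at least 2-fold higher in Br (42.9% of genes), while 6161 were less than 2-fold apart. The counting interval lay wholly past 2-fold for 2012 of the former and 5611 of the latter. The asymmetry depends on the scaling. Relative to the median gene, 5068 genes were 2-fold higher in EU and 5435 in Br, and TMM scaling, which trims extreme genes, moved every log2 ratio up by 0.56. Medians and 2-fold counts of lists below use library totals, and are to be read against the median gene at -0.63. Rescaling a library does not alter the distance of a list from that gene. Lists with a median near 0 thus lie above the median gene. Pausing and elongation factors did so by 0.72, urea cycle and amino acid enzymes by 0.65, unfolded protein response genes by 0.61 and hepatocyte transcription factors by 0.31. In the knockout pair the median gene stood at -0.47. Counts of list members are to be read against the shares of all genes, 19.6% higher in EU and 42.9% higher in Br.

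A test was possible only over the 4 nascent libraries, with genotype as a covariate and 1 residual degree of freedom. The edgeR quasi-likelihood test at an adjusted p under 0.05 called 1021 genes higher in EU (6.21%) and 2104 higher in Br (12.8%), 19% together. TMM scaling gave 1750 and 1383 instead. With genotype in the fit, these calls rest on how alike the difference between methods was in wild type and knockout, not on replicates. Without either Br library the numbers were 0 and 45 (without the wild type) or 0 and 50 (without the knockout), and without either EU library they were 2808 and 6451 or 2696 and 6067.

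Genes of small nuclear RNA, snoRNA and ribosomal RNA took larger shares of reads in the run-on. Small nuclear RNA genes took 2.30% of Br reads (interval 2.28 to 2.31%) and 0.0911% of EU reads (interval 0.0893 to 0.0929%), a share 25.2 times as large in Br. In the knockout pair the shares were 2.04% and 0.441%. Genes of snoRNA, which guide chemical modification of ribosomal RNA, took 1.93% of Br and 0.166% of EU reads, and in the knockout pair 3.01% and 1.69%. Annotated ribosomal RNA genes took 0.553% and 0.0672%. Protein-coding genes took 72.2% of Br reads and 91.9% of EU reads. Identifiers without an annotation entry took 15.7% of Br reads and 3.06% of EU reads, a larger gap than for any of these small RNA classes. For the summed shares of snRNA, snoRNA, rRNA and misc_RNA genes, the ratio of Br to EU was larger in the wild type than in the knockout, which does not hold for each gene.

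**Figure D1:**
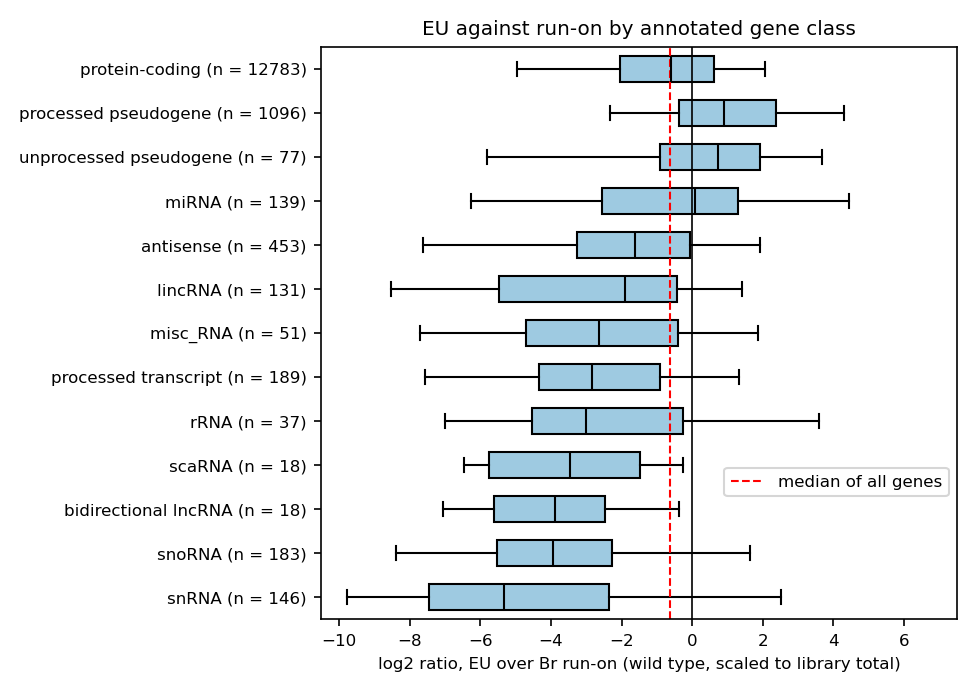
Boxes show the log2 ratio of EU over Br run-on in wild-type liver for each annotated class of gene with at least 20 reads (n in brackets; box, quartiles with the median; whiskers, 5th to 95th percentile; dashed line, median of all genes at -0.63). Small nuclear RNA (median -5.34) and snoRNA (-3.93) lie lowest, and processed pseudogenes (0.90) highest.

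By gene, 118 of 146 snRNA genes with enough reads were at least 2-fold higher in Br and 20 in EU, with a median log2 ratio of -5.34 (-4.30 in the knockout pair). The edgeR test called 45 of them higher in Br and 0 higher in EU. Rnu1b6, a copy of the U1 RNA that marks the start of introns, had 8 EU and 2263 Br reads in the wild type and 102 and 1626 in the knockout (edgeR log2 -7.34, SE 1.48, adjusted p = 0.0366). In CPM the Br libraries stood at 717 and 702 and the EU libraries at 0.738 and 18.3. Rnu12 belongs to the minor spliceosome and stood at 9.69 CPM in EU and 798 in Br, and in the knockout at 38.9 and 655 (edgeR adjusted p = 0.0112). Rnu11 of the same spliceosome had 3.32 and 377 in the wild type and 14 and 347 in the knockout. Copies of U1 and U2 are nearly identical, so that the authors' counting may have split or shared their reads.

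A list of abundant RNAs joined those made by RNA polymerase III to small nuclear RNAs made by RNA polymerase II. Of 14 with enough reads, out of 27 looked for, 12 were at least 2-fold higher in Br and 1 in EU, with a median of -3.51, and edgeR called 8 higher in Br. Rn7sk, the RNA that holds the elongation kinase P-TEFb inactive, stood at 95.6 CPM in EU and 1903 in Br, and at 140 and 1376 in the knockout pair (edgeR log2 -3.81, SE 0.66, adjusted p = 0.0137). The member higher in EU was Rprl2, an RNase P RNA-like gene, with 21.2 in EU and 6.97 in Br, and 51.9 and 16.8 in the knockout. Its edgeR adjusted p was 0.104.

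Of 183 snoRNA genes, 151 were at least 2-fold higher in Br and 14 in EU, with a median of -3.93 against -1.24 in the knockout pair. Snord104 stood at 27.6 CPM in wild-type EU, 2216 in wild-type Br, 787 in knockout EU and 3091 in knockout Br. The EU value thus differed far more between the genotypes than the Br value, and the edgeR adjusted p was 0.0822. Snord55 stood at 202, 2067, 2371 and 4680, so that its knockout EU value lay above its wild-type Br value. Snord82 had 990 EU and 114 Br reads in the wild type and 2585 and 158 in the knockout (log2 ratio 2.76). It lies within Ncl, whose own ratio was 0.84, and reads of such intronic RNAs and their host cannot be told apart here. Among the scaRNAs, which modify spliceosomal RNAs, 14 of 18 were at least 2-fold higher in Br (median -3.46, and -1.13 in the knockout pair). Scarna2 stood at 6.18 and 346 (edgeR adjusted p = 0.00712), while Gm22009 stood at 1050 and 80.5 in the other direction (adjusted p = 0.0102).

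The 139 miRNA genes were divided, with 43 at least 2-fold higher in EU and 55 in Br. Their median was 0.09 in the wild-type pair, with single genes from -11.5 to 6.48. In the knockout pair it was 2.60, over the 107 genes with enough reads there. Mir192 had 969 EU and 264 Br reads in the wild type (log2 0.09, interval -0.10 to 0.30) and 2751 and 41 in the knockout (log2 4.78). Mirlet7b and Mir195a had log2 ratios of 0.51 and 0.56 in the wild type and 3.50 and 4.48 in the knockout. Mir122, the most abundant liver miRNA, stood at 204 and 216 CPM in wild-type EU and Br and at 462 and 152 in the knockout. RefSeq entries matched 101 of the 139 genes by symbol. Whether a read came from a hairpin, a mature miRNA or the host transcript cannot be told apart from these counts.

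Replication-dependent histone genes, short and without introns, were the protein-coding group farthest towards the run-on. Their mRNAs end in a stem-loop in place of a poly(A) tail. Of 54 genes, 46 had enough reads, and all 46 were at least 2-fold higher in Br, with a median log2 ratio of -6.03 (-6.79 in the knockout pair). The edgeR test called 35 higher in Br and 0 in EU. Together all 54 genes took 0.284% of Br and 0.0104% of EU reads in the wild type, and 0.292% and 0.0112% in the knockout. Unlike the small RNAs, the histone share of EU reads barely differed between genotypes. Hist1h4c had 43 EU and 855 Br reads in the wild type and 12 and 627 in the knockout, or 3.97, 271, 2.15 and 271 CPM (edgeR log2 -6.49, SE 0.50, adjusted p = 0.00313). Hist1h1e, a linker histone gene, was nearest to the other genes, with 28.6 and 80.8 CPM (adjusted p = 0.0302). Hist1h2bj had no read in either EU library against 106 and 49 in Br. Coding sequences of the H4 copies are nearly identical, which makes single H4 values uncertain.

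Short housekeeping genes lay on the same side. Of 77 genes for cytosolic ribosomal proteins, 70 were at least 2-fold higher in Br and 0 in EU, and edgeR called 30 of them. The list's median was -2.40, or 1.77 below the median gene, and -1.78 in the knockout pair. Rps28 had 10 EU and 237 Br reads in the wild type and 0 and 122 in the knockout (edgeR adjusted p = 0.00957). Rpl4 stood closer, at 33 and 67.2 CPM (adjusted p = 0.0724). Rpl21 stood at 43.5 and 81.1 in the wild type and at 245 and 62.1 in the knockout, so its ratio pointed in opposite directions. Many of these genes have processed copies elsewhere in the genome, and their values are uncertain. In the wild type 31 of 53 nuclear-encoded subunits of the respiratory chain were at least 2-fold higher in Br and 3 in EU (median -1.24, and -1.14 in the knockout pair). Ndufs7, a complex I subunit, stood at 12.5 and 412 (edgeR log2 -5.57, SE 0.57, adjusted p = 0.00649). Ndufs1, a complex I subunit from a gene with a span of 33.2 kb, stood at 124 and 34.5 (log2 1.48, SE 0.41, adjusted p = 0.0458).

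Immediate early genes, whose mRNAs are made in bursts and decay within minutes, were nearly all higher in the run-on. Of 33 with enough reads out of 36, 30 were at least 2-fold higher in Br and 1 in EU, with a median of -3.29 in the wild type and -1.49 in the knockout pair. The edgeR test called 13 higher in Br. The list's members are also short, with a median span of 4.235 kb. All protein-coding genes of 2 to 10 kb had medians of -1.72 in the wild type and -1.67 in the knockout pair. Whether span or mRNA decay underlies the ratio of this list was not tested. Fos had 11 EU and 308 Br reads in the wild type and 5 and 199 in the knockout, or 1.02, 97.6, 0.895 and 85.9 CPM (edgeR log2 -6.55, SE 0.58, adjusted p = 0.00405). Jun stood at 3.51 and 93.8 (adjusted p = 0.00568), and Zfp36, which encodes a protein that triggers decay of AU-rich mRNAs, at 58.3 and 723 (adjusted p = 0.0111). Mcl1, a survival factor of the BCL2 family, was the member at least 2-fold higher in EU, with 462 and 186 and, in the knockout, 420 and 184 (adjusted p = 0.0805). Cebpd, a hepatocyte transcription factor also known for rapid induction, stood at 0.831 and 65.9 (adjusted p = 0.0105).

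Metabolic lists of the hepatocyte differed among themselves. Cytochrome P450 and conjugation enzymes, which modify drugs and steroids, had a median log2 ratio of 1.17, or 1.80 above the median gene, with 16 of 29 at least 2-fold higher in EU and 5 in Br. In the knockout pair the median was 0.29, and edgeR called 6 higher in EU and 5 in Br. Cyp2c70, which hydroxylates bile acids in the mouse, stood at 746 and 45.6 CPM in the wild type and 157 and 44 in the knockout (log2 2.94, SE 0.65, adjusted p = 0.0288). The Br level was thus alike in the genotypes while the EU level was not. Cyp2e1 stood at 2784 and 1113 in the wild type and 3470 and 1084 in the knockout (adjusted p = 0.155). Gstm1, a glutathione transferase, went the other way with 18 and 142, and 41.4 and 191 in the knockout (adjusted p = 0.012). Cyp2c, Ugt2b and Gstm genes resemble their neighbours in sequence, so single values are uncertain.

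**Figure D2:**
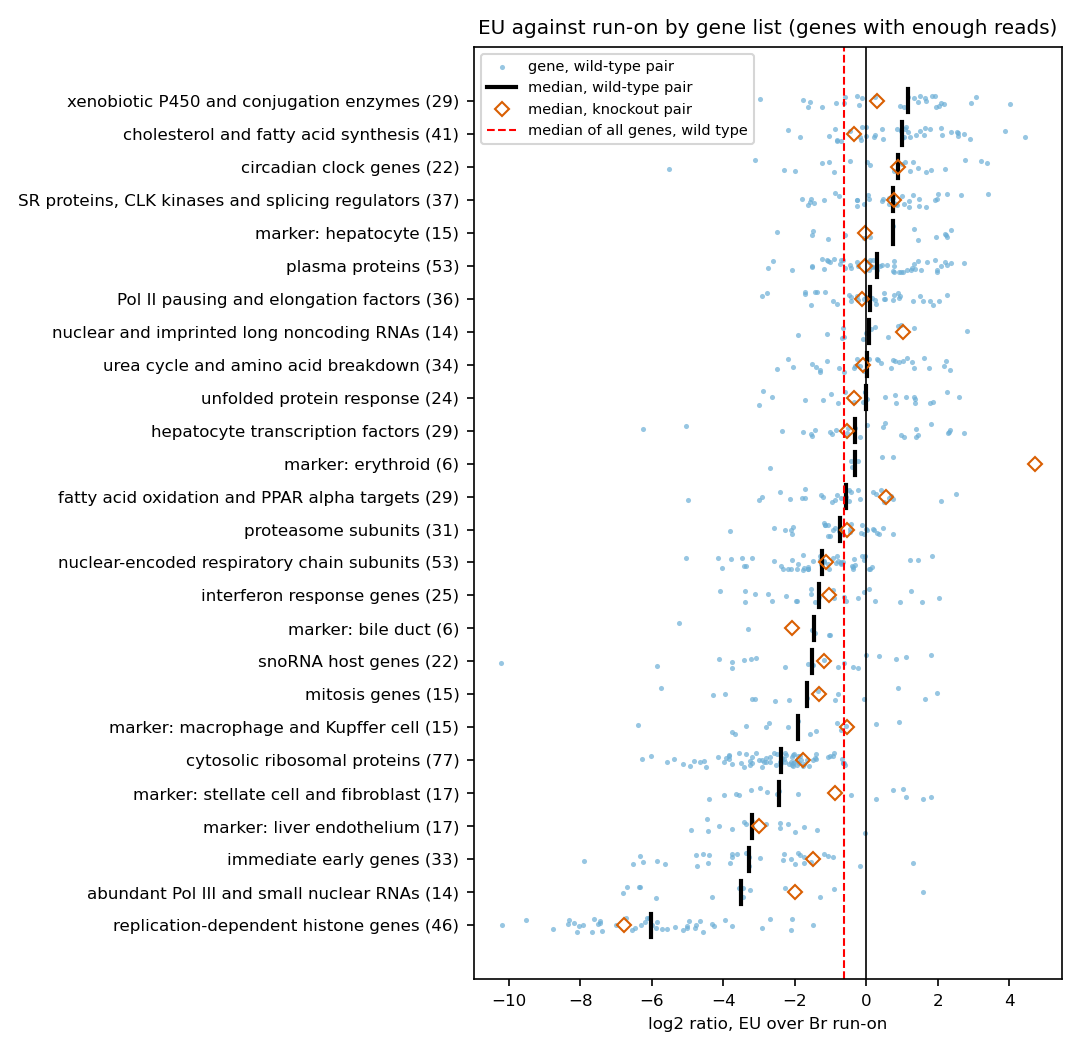
Each point is the log2 ratio of EU over Br in wild-type liver of 1 gene with at least 20 reads, by gene list (number of genes in brackets). Black bars are medians in the wild-type pair, open diamonds medians in the knockout pair, and the dashed line the wild-type median of all genes at -0.63. Lists run from a median of -6.03 for histone genes to 1.17 for P450 and conjugation enzymes, and the erythroid markers differ most between the pairs (-0.32 and 4.72).

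Enzymes of cholesterol and fatty acid synthesis, which SREBP factors induce after feeding, had a median of 0.99 in the wild type and -0.34 in the knockout pair. In the wild type 20 of 41 were at least 2-fold higher in EU and 3 in Br, and edgeR called 5 higher in EU and 0 in Br. Elovl6, which lengthens palmitate, stood at 1096 and 50.7 CPM in the wild type and at 503 and 31.5 in the knockout (log2 4.22, SE 0.54, adjusted p = 0.00809). Fasn, the fatty acid synthase, had log2 ratios of 2.08 in the wild-type and -0.34 in the knockout pair. Dgat1, which makes triglyceride, lay towards Br with 15.1 and 69.4 (adjusted p = 0.0743). Cyp7a1, the rate-limiting enzyme of bile acid synthesis and on none of the lists, had 20872 EU and 353 Br reads in the wild type and 5047 and 391 in the knockout, and was called higher in EU by edgeR (log2 3.26, adjusted p = 0.023). It was named after its values were seen.

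Plasma protein genes took 7.34% of EU reads and 3.22% of Br reads in the wild type, and 5.15% and 3.05% in the knockout. By gene they were more divided than that share, with 17 of 53 at least 2-fold higher in EU (32.1%), 10 in Br (18.9%) and a median of 0.31. In the knockout pair the median was -0.04, and edgeR called 1 gene higher in EU and 3 higher in Br. Alb alone had 244515 EU reads, the most of any gene, and stood at 22571 and 4341 CPM in the wild type and 16482 and 3855 in the knockout (adjusted p = 0.146). Apob stood at 12727 and 2642, and at 10973 and 2312 in the knockout (adjusted p = 0.114). For both, each EU library was above each Br library, although edgeR called neither. Apoa2, a short apolipoprotein gene of 1.33 kb, stood at 124 and 832, and at 216 and 765 in the knockout (log2 -2.28, SE 0.54, adjusted p = 0.0297). Serpina3k, a serine protease inhibitor with close relatives in its cluster, stood at 5642 and 847 (adjusted p = 0.0601). Igf1, the liver's circulating growth factor, was among the 10 named genes with the highest ratio, at 1838 and 96.3 in the wild type and 1173 and 81.5 in the knockout (log2 4.05, SE 0.62, adjusted p = 0.0111).

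**Figure D3:**
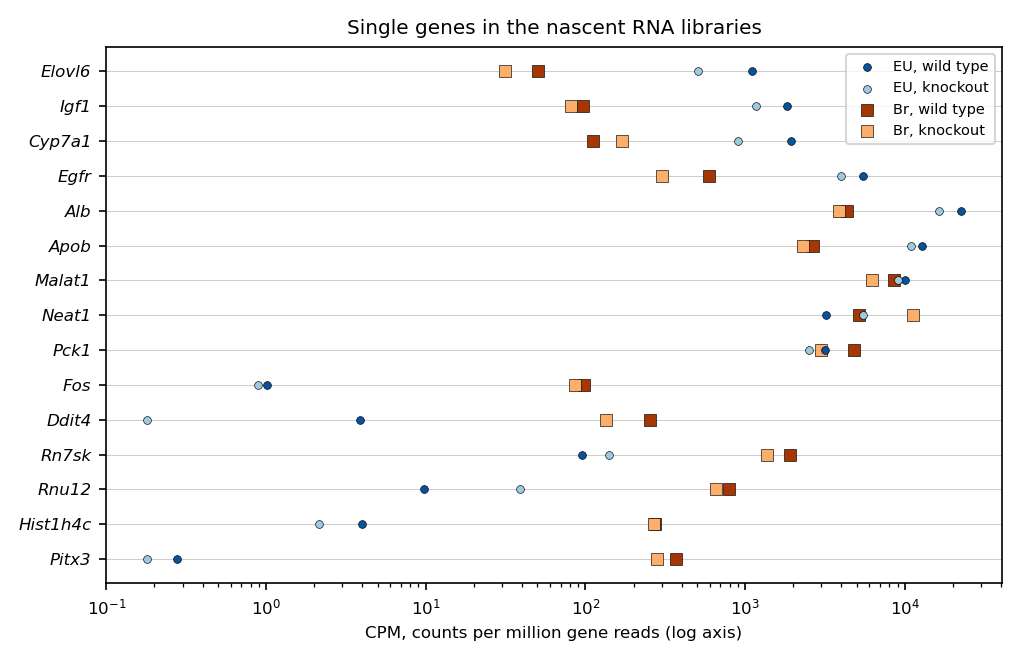
CPM (log axis) of single genes in the 4 nascent libraries, circles for EU and squares for Br, dark for wild type and light for knockout. Elovl6 to Apob have higher values in both EU libraries than in either Br library. Fos to Pitx3 have both Br libraries above both EU libraries.

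Urea cycle and amino acid enzymes had a median of 0.03 (-0.08 in the knockout pair), with 9 of 34 at least 2-fold higher in EU and 8 in Br. Within the list Cps1, which makes carbamoyl phosphate, stood at 9328 and 1993 (edgeR adjusted p = 0.12), and Ass1, a later enzyme of the same cycle, at 224 and 1258 (adjusted p = 0.121). These neighbours in 1 pathway therefore lay on opposite sides in the wild type, and neither was called. Among fatty acid oxidation genes and PPAR alpha targets the median was -0.56 in the wild type and 0.55 in the knockout pair, with 2 of 29 at least 2-fold higher in EU and 10 in Br. Acsl1, which activates fatty acids, stood at 1183 and 278 (adjusted p = 0.038), and Cyp4a10, an omega-hydroxylase, had log2 ratios of -3.01 and 0.72 in the pairs. Of 29 hepatocyte transcription factors, 9 were at least 2-fold higher in EU and 8 in Br, with a median of -0.32 (-0.55 in the knockout pair). Onecut2 stood at 878 and 174 (adjusted p = 0.0209), and Hnf4a, a central regulator of hepatocyte genes, at 2122 and 782 (adjusted p = 0.273).

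Clock genes were split by member. The list's median was 0.88 in the wild type and 0.90 in the knockout pair, with 10 of 22 at least 2-fold higher in EU and 6 in Br. The edgeR test called 6 and 2. Per3, a repressor of the clock's negative limb, stood at 455 and 43.4 CPM in the wild type and 300 and 10.4 in the knockout (log2 4.09, SE 0.53, adjusted p = 0.00848). Nr1d2 and Nr1d1 encode the related repressors REV-ERB beta and alpha. Nr1d2 stood at 601 and 65, with 652 and 38 in the knockout (adjusted p = 0.00914). Nr1d1 stood at 47.8 and 412, with 106 and 230 in the knockout (log2 -2.11, SE 0.58, adjusted p = 0.0486). The paralogues were therefore called in opposite directions. The span of Nr1d2 is 35.1 kb and that of Nr1d1 7.40 kb. Hours of day at which the animals for each library were killed are not given in the sources used here.

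SR proteins, CLK kinases and other splicing regulators had a median of 0.75, and 0.76 in the knockout pair, with 13 of 37 at least 2-fold higher in EU and 6 in Br. The edgeR test called 8 higher in EU and 3 in Br. Luc7l2, a U1-associated splicing factor, stood at 1149 and 108 in the wild type and 1076 and 99.2 in the knockout (log2 3.42, SE 0.56, adjusted p = 0.0124). Srsf7, a short SR protein gene, stood at 37.4 and 129 (adjusted p = 0.0217). Factors of polymerase II pausing and elongation had a median of 0.09 (-0.11 in the knockout pair), with 7 of 36 at least 2-fold higher in EU (19.4%, against 19.6% of all genes) and 8 in Br (22.2%), and edgeR called 3 and 3. Ell2, an elongation factor, stood at 424 and 104 (adjusted p = 0.0174), and Mepce, which caps 7SK RNA, at 14.1 and 108 (adjusted p = 0.0137).

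Nuclear and imprinted long noncoding RNAs had a median of 0.06 in the wild type and 1.02 in the knockout pair, with 2 of 14 at least 2-fold higher in EU and 2 in Br, and edgeR called 1 higher in EU and 0 in Br. Malat1, found in nuclear speckles, stood at 9978 CPM in EU and 8502 in Br, and at 9086 and 6221 in the knockout. Neat1, the scaffold of paraspeckles, stood at 3230 and 5150, and at 5444 and 11219 in the knockout. Adjusted p-values from edgeR were 0.775 and 0.489. Meg3, an imprinted RNA, had log2 ratios of -1.90 in the wild type and 0.95 in the knockout. The member called was 1700020I14Rik (also called Oip5os1), with 522 and 73.8 (adjusted p = 0.0157). Genes that host snoRNAs in their introns had a median of -1.51 (-1.19 in the knockout pair), with 13 of 22 at least 2-fold higher in Br and 2 in EU, and edgeR called 6 and 0. Snhg9 had 0 EU reads in both genotypes against 174 and 161 Br reads, which makes it at least 199-fold lower in wild-type EU when 0 is read as fewer than 3 reads. Snhg9 is 0.435 kb long and annotated as antisense, so its reads cannot be told from those of an overlapping gene. Transcripts from shared promoters, the 18 bidirectional promoter lncRNAs with enough reads, had a median of -3.89 (-5.65 in the knockout pair), and 15 were at least 2-fold higher in Br.

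Stress lists differed from each other. Unfolded protein response genes had a median of -0.01 (-0.36 in the knockout pair), with 8 of 24 at least 2-fold higher in EU and 5 in Br, and edgeR called 2 and 2. The chaperone gene Dnajb9 stood at 247 and 40.6 (edgeR adjusted p = 0.0127), and Manf, a secreted stress factor of the endoplasmic reticulum, at 28.9 and 232 (adjusted p = 0.0076). Interferon response genes had a median of -1.33, or -1.05 in the knockout pair. In the wild type 13 of 25 were at least 2-fold higher in Br (52%, against 42.9% of all genes) and 3 in EU (12%, against 19.6%). The edgeR test called 4 higher in Br and 0 in EU. Over the 16 members with at least 100 reads the median was -0.40, against -0.17 for all genes at that depth. Irf7, a master regulator of interferon genes, stood at 8.22 and 87.5 (adjusted p = 0.0243). Proteasome subunits had a median of -0.72 (-0.53 in the knockout pair), near that of all genes, with 12 of 31 at least 2-fold higher in Br and 0 in EU. Mitosis genes had a median of -1.65 (-1.32 in the knockout pair) over the 15 of 29 with enough reads.

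Size of the gene went with the ratio across all protein-coding genes. The median went with genomic span from -3.23 under 2 kb (328 genes) to -1.72, -0.66, 0.08 and 0.37 for genes of 2 to 10, 10 to 30, 30 to 60 and 60 to 150 kb, and was -0.08 above 150 kb (925 genes). In the knockout pair the same classes had medians of -3.73, -1.67, -0.66, 0.09, 0.42 and 0.08. Genes with 1 exon had a median of -2.31 and those with 20 or more exons one of 0.05. Under 2 kb, 258 of 328 genes were at least 2-fold higher in Br and 18 in EU.

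Uridine content showed a gradient too, looked at after the values were seen. Protein-coding genes were put into 10 equal bins by the uridine share of their longest transcript in GENCODE M21. The lowest bin, with a median share of 19.1%, had a median log2 ratio of -2.09 and the highest, with 31.0%, one of 0.83, and the median was higher in each bin than in the one before it. In the knockout pair these bins had -1.97 and 0.85. In the lowest bin 72.1% of genes were at least 2-fold higher in Br and 1.41% in EU, and in the highest 14.1% and 45.4%. Across 12783 genes, which are not independent replicates, Spearman's rho was 0.462 with uridine share, -0.530 with GC share and 0.366 with span. Uridine and GC share were themselves tied (rho -0.868), and so cannot be told apart. Spliced transcripts stand in for the counted sequence, since whether introns were counted is not given in the sources used here.

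**Figure D4:**
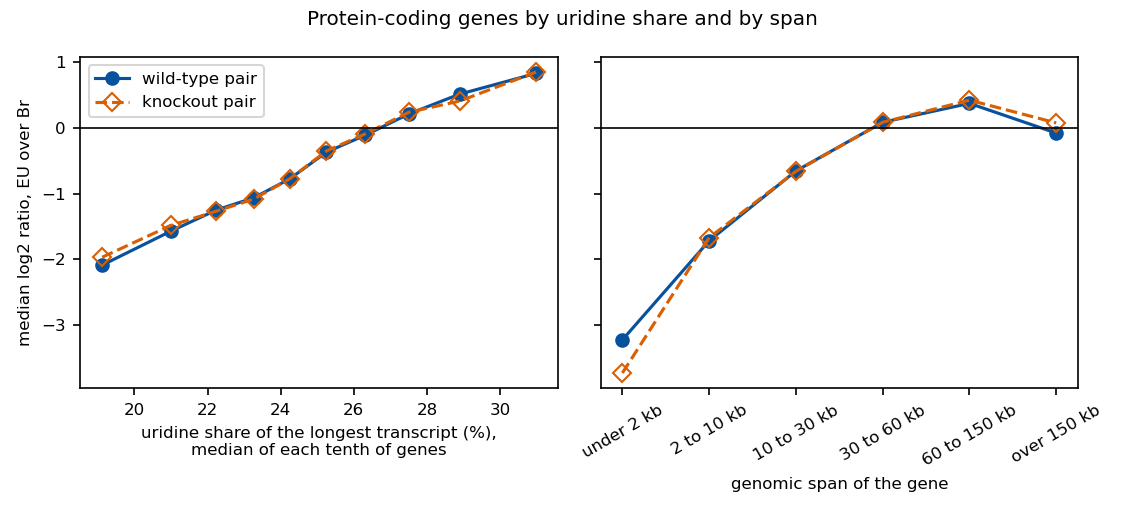
Median log2 ratio of EU over Br of protein-coding genes in 10 equal bins of uridine share (left, plotted at the median share of each bin) and in classes of genomic span (right), circles for the wild-type pair and diamonds for the knockout pair. The median goes from -2.09 to 0.83 over the uridine bins and from -3.23 to 0.37 between genes under 2 kb and genes of 60 to 150 kb.

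Span and uridine share were not the same gradient. Among genes of 2 to 10 kb the median was -2.35 in the lowest of 4 equal groups by uridine share and -0.61 in the highest. Among genes of 60 to 150 kb those medians were -0.76 and 1.10. At a low uridine share the median went from -4.26 under 2 kb to -0.59 over 150 kb. The knockout pair gave -2.35, -0.65, -0.60 and 1.09 for the first 4 of these groups. Overlap of an exon with an annotated small RNA went with little: the 376 protein-coding genes with such an overlap had a median of -0.73 and the 12407 others one of -0.60.

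Level of expression also went with the ratio. Over 5 equal bins of the mean wild-type mRNA value per kb of exon, the median log2 ratio was -2.31 in the lowest bin and -0.54, -0.20, -0.24 and -0.38 in the others. Genes at least 2-fold higher in Br made up 68.2% of the lowest bin and 41.7%, 32.0%, 31.8% and 35.3% of the others, more than those higher in EU in each. Across genes Spearman's rho with this mRNA value was 0.254 in the wild-type and 0.0736 in the knockout pair. In the knockout nascent libraries, which the wild-type ratio does not use, summed CPM gave bins with medians of -1.92, -1.32, -0.66, -0.06 and 0.57. Median reads rose over these bins from 44 to 1925, so low depth and low expression cannot be told apart.

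Endothelial markers lay towards the run-on in both pairs, while the medians of macrophage and stellate cell markers were less low in the knockout pair. Of 17 endothelial markers with enough reads out of 18, 16 were at least 2-fold higher in Br and 0 in EU, with a median of -3.21 (-2.99 in the knockout pair), and edgeR called 11. Stab2, a scavenger receptor of sinusoidal endothelium, stood at 45.5 and 207 CPM, and at 37.8 and 241 in the knockout (log2 -2.43, SE 0.39, adjusted p = 0.012). Macrophage markers had a median of -1.92 with 10 of 15 at least 2-fold higher in Br and 0 in EU, but a median of -0.54 in the knockout pair, near that of all genes, and edgeR called 2 of 15. Stellate cell markers had a median of -2.43 (-0.88 in the knockout pair), with 10 of 17 at least 2-fold higher in Br and 4 in EU, and edgeR called 4 and 1. Over the 9 members with at least 100 reads this median was 0.27. All 6 bile duct markers with enough reads, of 12, were at least 2-fold higher in Br (median -1.48, and -2.07 in the knockout pair), and edgeR called 3. Hepatocyte markers had a median of 0.74, with 7 of 15 at least 2-fold higher in EU and 4 in Br, but a median of -0.04 in the knockout pair, and edgeR called 0 of them at an adjusted p under 0.05. Fewer nuclei of a type and less labelled RNA per nucleus cannot be told apart in whole liver. Most of these markers had few EU reads: all 18 listed endothelial genes together had 2409 EU and 4679 Br reads.

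The knockout pair repeated most of the large differences. Of 2824 genes at least 2-fold higher in EU in the wild type and with enough reads in both pairs, 1947 were so in the knockout pair (68.9%, against 21.9% of all these genes) and 87 were at least 2-fold higher in Br. Of 6065 higher in Br, 4553 were so again (75.1%, against 40.9% of all) and 215 were reversed past 2-fold. With a 4-fold limit the shares were 60.9% and 67.7%, against 9.5% and 26.4% of all. Across the 14497 genes Spearman's rho between the pairs was 0.754 and Pearson's r 0.720. The median absolute difference between the log2 ratios of the pairs was 0.91. Both pairs went through the same library steps, so that chemistry and biology of the RNA cannot be told apart by this repeat.

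**Figure D5:**
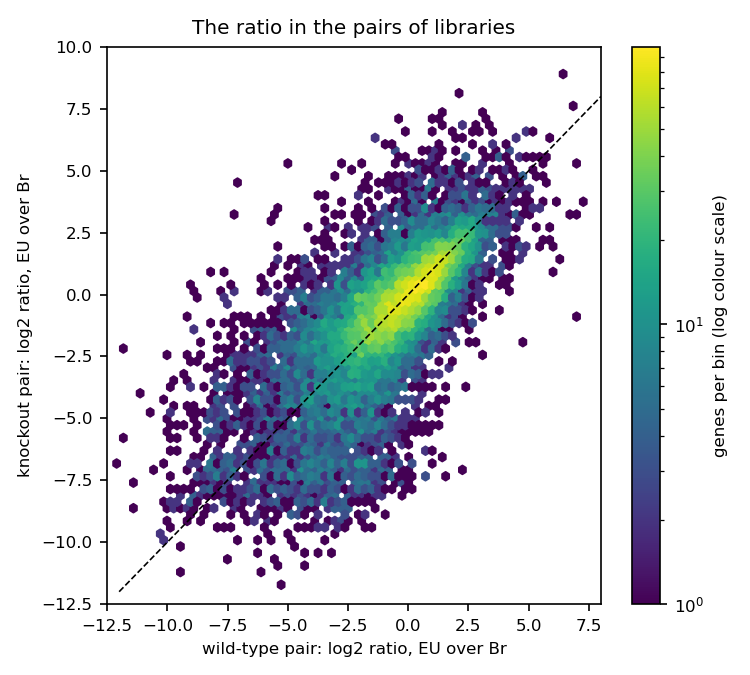
Log2 ratio of EU over Br in the knockout pair against that in the wild-type pair for 14497 genes with at least 20 reads in each (colour, genes per bin on a log scale; dashed line, equal values). The pairs rank genes alike (rho 0.754), but the median absolute difference from equal values is 0.91 in log2. Genes with few or no EU reads form the broad lower left.

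Single genes at the ends of the ratio were taken from those with at least 200 reads and the same sign in the knockout pair. Serpina7, which encodes thyroxine-binding globulin, had 264 EU and 0 Br reads in the wild type, at least 25.6-fold higher in EU, and 434 and 13 in the knockout (edgeR adjusted p = 0.0266). Atr, a kinase of the DNA damage checkpoint, had 811 and 6 reads, and 976 and 34 in the knockout (log2 4.30, SE 0.57, adjusted p = 0.00878). Slc13a1, a sulfate transporter, had 215 and 1 reads, with an interval of 3.48 to 11.28 for the log2 ratio. Slc10a2, the apical bile acid transporter, had 1829 and 27 (adjusted p = 0.0581). Nrep, Zfp946, Coq10b and B3galt1 had log2 ratios of 4.93, 4.77, 4.39 and 4.29. All 10 genes at this end, Elovl6 and Igf1 included, have a uridine share of at least 27.0%. Such a share is common: bin 8 of the 10 equal uridine bins of protein-coding genes already starts at 26.9%. These genes were picked on the same ratio, so their uridine share adds nothing to the gradient above. Egfr, the epidermal growth factor receptor, was among the 8 genes with the most EU reads, with 5478 CPM in EU and 593 in Br (log2 3.47, SE 0.78, adjusted p = 0.0262).

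Genes at the low end had few or no EU reads in the wild type. Pitx3, a homeobox factor of lens and midbrain, had 3 EU and 1165 Br reads in the wild type and 1 and 651 in the knockout (log2 ratio -10.16, interval -12.66 to -8.83, edgeR adjusted p = 0.00313). Olig1, a factor of the oligodendrocyte lineage, had 0 and 216 reads, at least 247-fold lower in EU, and 3 and 195 in the knockout (adjusted p = 0.00859). Polr2i, a subunit of RNA polymerase II, had 1 and 231 reads in the wild type but 33 and 185 in the knockout (adjusted p = 0.0592). Epb41l4a and Ackr2 had log2 ratios of -8.05 and -8.04, and the H4 genes Hist1h4a and Hist1h4j -8.33 and -8.16. Snora57 had 1 and 209 reads in the wild type and 277 and 330 in the knockout (adjusted p = 0.205). Where Br reads lie within these genes is not given by a count per gene.

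Pseudogenes went against the general trend. Of 1096 processed pseudogenes, 534 were at least 2-fold higher in EU and 176 in Br, with a median of 0.90 (1.62 in the knockout pair), although edgeR called only 47 and 11. The 2 with the most Br reads were exceptions: Gm12895 and Gm12896 had 137 and 141 EU reads and 21645 and 22021 Br reads, values alike enough that the copies may share them. Reads of a pseudogene cannot be told from those of its parent gene, which makes the class uncertain. Lars2, the mitochondrial leucyl-tRNA synthetase, had the second highest EU count with 229908 reads. It was also high in Br with 20503 (log2 1.71, edgeR adjusted p = 0.261). A count per gene does not show where within Lars2 these reads lie or whether other loci share them.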

How the data were processed

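Groups came from the sample titles. Counts per gene were used as the authors deposited them. The submitters' processing notes list genome mm9, TopHat2, Bowtie2, Cufflinks, DESeq, SICER and MACS2 without saying which step used which. The counter, its annotation, its use of strand and whether introns were counted are not given in the sources used here. Br counts were halved because all deposited values are even. RPKM values deposited by the authors served only as an alternative. The mRNA files hold a score per the file values: counts the authors scaled with DESeq size factors and rounded, so they served only for bins of expression.

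The ratio is log2 of (reads + 0.5) per library total, EU over Br. Names, classes and transcripts came from GENCODE M21 (GRCm38), which held 32860 of 37583 identifiers. For the ratio, a limit of at least 2-fold either way was used without a test. The word called refers to the edgeR test at an adjusted p under 0.05. Tests over the 4 nascent libraries used edgeR 4.0.16 (glmQLFit, genotype and method, library totals, two-sided, Benjamini-Hochberg over 16434 genes) in R 4.3.3, with DESeq2 1.42.0 as an alternative. Whether the libraries come from separate animals is not stated. The residual spread behind the p-values is the difference of the method effect between genotypes, not a spread of replicates. An effect of the knockout on the ratio would therefore count as spread. The edgeR step and the ratio were also run on simulated data. That simulation gave all genes a common dispersion and no genotype effect for edgeR, and counting error only for the ratio. Being simpler than the data, it cannot show that the calls or intervals hold here.

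Members and lists were chosen with earlier results of these data known. Uridine, GC and nascent-level bins, the small RNA overlap and the printed sequences were chosen after the values were seen. Named genes were the 10 highest and 10 lowest ratios among genes with at least 200 reads and the same sign in the knockout pair (without Gm, Rik, -ps and clone names), the 8 genes with the most reads per library, and for each list or class the 2 members with the most reads, up to 3 farthest in its direction and 1 in the other among those with at least 50 reads. Other list members given with values (Jun, Ncl) were chosen after their values were seen. Not all genes that the rule chose are printed. Other alternatives were 0.1 or 2 added reads, minima of 10, 100 or 1 read, other scalings, Br counts as deposited, the deposited RPKM, the knockout pair, other filters, no genotype term and each library left out. The 24 chromatin and input samples and genes of the mitochondrial genome were not analysed here.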

Additional observations from a re-analysis of the deposited data

Results flagged for a closer look

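A pair of scaRNA genes pointed in opposite directions, each past 2-fold, in the pairs of libraries. Scarna13 had 8 EU and 48 Br reads in the wild type (log2 ratio -4.29) and 109 and 16 in the knockout (1.46). Scarna3a had 37 and 69 in the wild type (-2.67) and 140 and 26 in the knockout (1.14). With 1 library for each method and genotype, the difference between the genotypes was not tested.

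Identifiers without an entry in the annotation lie outside the annotated classes described above. They took 3.06% of wild-type EU reads and 15.68% of wild-type Br reads, with 7.16% and 20.0% in the knockout pair. Of these, 944 had at least 20 reads, and 540 were at least 2-fold higher in Br and 169 in EU. ENSMUSG00000045999 had 36216 EU and 141733 Br reads, the most Br reads of any identifier, and ENSMUSG00000090378 had 56965 and 384.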

How the results depend on the processing

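No paired analysis was possible because the nascent libraries carry no replicate numbers. The count of genes at least 2-fold higher in EU (3215) was 5068 when centred on the median gene, 4829 with TMM and 2007 with the deposited RPKM. The count higher in Br (7058) was 3597 with a minimum of 100 reads, 16694 with none and 4669 with RPKM. The edgeR count higher in EU (1021) was 1750 with TMM, 2023 with DESeq2 and, with 1 library left out, 0 (either Br library), 2696 (knockout EU) and 2808 (wild-type EU). The count higher in Br (2104) was 1383 with TMM, 3386 without a filter and, with 1 library left out, 45 (wild-type Br), 50 (knockout Br), 6067 (knockout EU) and 6451 (wild-type EU). Fits with a library left out had no genotype term, and the lone library of a method was assumed to vary like the other pair. Of medians relative to all genes, 2 reversed: stellate markers were at 0.44 with a minimum of 100 reads and unprocessed pseudogenes at -0.25 with no minimum. Among genes named by the rule and past 2-fold in the wild type, log2 ratios changed sign in the knockout pair for Mx1 (0.12), C4a (-0.78), Rsad2 (-0.77), Meg3 (0.95), Fasn (-0.34), Spp1 (0.33), Snord45b (0.0078), Cyp4a10 (0.72), Pgk1-rs7 (-0.35), Scarna13 (1.46) and Scarna3a (1.14). C4a was at -1.41 in edgeR without the wild-type EU library. The causes were not tested. Shares of reads outside the mitochondrial genome were not run, since no such genes were among those analysed. Low depth limits genes near 20 reads, where 0 reads allow up to 0.277 CPM in EU and 0.951 in Br.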
